A study of Mus musculus with 12 samples.

Results

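DNA replication genes were followed in RAW264.7, a transformed line of mouse macrophages. The set holds 43 genes, taken by name as the probes whose gene symbol is a core replication factor, a nucleotide-supply enzyme, an E2F factor or cyclin E, out of 36282 gene names or other identifiers on the array. Of these 43 genes, 42 were tested among 23890 features, and Ccne2, the gene of the second cyclin E, was well above background on 0 of 12 arrays and has no change here. The 51 probes of the set included more than 1 for 7 genes, and 49 probes (96.1%) passed the filter on dim signal, against 59.5% of all probes.

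The 12 single-colour arrays form 4 groups of 3. Control siRNA cells received a scrambled siRNA, lincRNA siRNA cells an siRNA against lincRNA-Tnfaip3, both for 24 h. The other two groups had the same siRNAs and then E. coli LPS, the cell-wall lipopolysaccharide that macrophages sense as bacterial, at 1 µg/ml for 4 h, while unstimulated cells were kept without LPS. No source gives separate cultures for the replicates, so each p-value here rests on differences between samples that may be technical only. All cells are one line that divides in culture, and no untransfected group is among these samples. No probe was found that names lincRNA-Tnfaip3, so its knock-down was not checked.

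Before a cell copies its DNA, the origin recognition complex with CDC6 and CDT1 loads the MCM helicase onto origins. CDC45, the GINS complex and MCM10 then help turn the helicase on, and polymerases, the PCNA clamp, its RFC loader and the single-strand binding protein RPA carry out synthesis. Many of these genes are transcribed as cells pass from G1 into S phase, through E2F factors that bind their promoters and that the retinoblastoma protein restrains. In macrophages, LPS is known to slow or stop division.

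Promoter sequence was looked at because the set contains both E2F factors and genes known as E2F targets. RefSeq promoter windows of GRCm38.p6, from 250 bases before to 50 bases after the start site, were matched by symbol for 35 of the 43 genes, and Ccne2, Gins1, Gins2, Gins4, Mcm4, Pole, Prim2 and Rfc2 had none. The E2F letters TTTCCCGC, TTTCGCGC, TTTGCCGC or TTTGGCGC, searched on both strands, occurred in 12 of the 35 windows (34.3%) and in 626 of 27025 genes (2.32%). The CCAAT letters occurred in 62.9% of the set's windows and 37.9% of all, and TTTGAA, the cell cycle homology letters, in 11.4% and 18.1%. The windows of the set had a median GC content of 58.3%, against 52.7% for all genes. The sequences below end at the base before the start site, are printed in the direction of transcription and show the E2F letters in capitals; they belong to genes whose values are described later. In the Mcm6 promoter a pair of matches overlaps, 110 and 106 bases before the start, and another begins 47 bases before it. One match begins 165 bases before the start in Mcm7, 41 in Gins3 and 138 in Cdc6.
Mcm6, chr1:128359706-128359875, minus strand: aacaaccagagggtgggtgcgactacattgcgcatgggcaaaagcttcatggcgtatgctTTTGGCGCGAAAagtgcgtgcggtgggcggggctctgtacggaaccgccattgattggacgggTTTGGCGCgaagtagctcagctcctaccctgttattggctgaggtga
Mcm7, chr5:138171884-138172053, minus strand: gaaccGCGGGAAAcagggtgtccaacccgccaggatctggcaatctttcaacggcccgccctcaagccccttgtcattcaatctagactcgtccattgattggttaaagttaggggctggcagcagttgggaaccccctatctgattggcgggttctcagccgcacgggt
Gins3, chr8:95633389-95633558, plus strand: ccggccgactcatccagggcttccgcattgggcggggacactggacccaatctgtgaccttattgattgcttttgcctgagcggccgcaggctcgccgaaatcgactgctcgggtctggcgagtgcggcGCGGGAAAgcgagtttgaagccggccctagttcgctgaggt
Cdc6, chr11:98907981-98908150, plus strand: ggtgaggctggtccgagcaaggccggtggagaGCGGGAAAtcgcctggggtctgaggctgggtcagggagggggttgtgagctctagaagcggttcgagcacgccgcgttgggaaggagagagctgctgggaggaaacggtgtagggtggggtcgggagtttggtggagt

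E2f2 itself had the clearest LPS difference on the brightest probe of each gene. It holds no such letters in the 170 bases before its start and 1 match that begins 39 bases after it.
E2f2, around that match, chr4:136172304-136172323, plus strand: ggcatatagTTTGGCGCtaa
A match is a description of letters and not evidence of binding. The genes with the letters had the same median LPS change as those without, -0.18 on the log2 scale for 12 and for 23 genes in control siRNA cells and -0.08 for both in lincRNA siRNA cells.

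Values below are log2 signal relative to the 75th percentile of the same array, so a change of -1 is a 2-fold lower signal, and levels of different genes are not compared. All 42 probes used were well above background on all 12 arrays. The SD between arrays of a group had a median of 0.12 over genes and groups. The arrays lay on 3 slides: control siRNA arrays 1 and 2 on slide 1, lincRNA siRNA with LPS arrays 2 and 3 on slide 3, and the other 8 on slide 2, which leaves 1 control siRNA array and 1 lincRNA siRNA with LPS array there. The slide 1 arrays had 27198 and 29462 probes well above background, against 32708 to 36367 on the others. Each comparison is therefore also given with slide as a block, whose log2 changes equal those within slide 2. Correlations between arrays of 1 group ran from 0.974 to 0.9914 over the tested features that had a value on every array. Of 10 macrophage markers, 9 were well above background on all 12 arrays and Mertk on 1.

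The first comparison asked how LPS changed these genes in control siRNA cells. E2f2, which encodes an activating E2F factor, fell, and it was the only one of 42 to pass the adjusted p of 0.05 (limma, Benjamini-Hochberg over all features), where 5.15% of all features passed, 1.89% lower and 3.26% higher. No member rose. Each gene was called on its brightest probe. Dimmer probes of Ccne1 (-0.64 ± 0.15, SE) and Rpa1 (-0.54 ± 0.15) were outside this count. The log2 signal of E2f2 was 3.30, 3.26 and 3.36 without LPS and 2.30, 2.86 and 2.77 with LPS. All 3 LPS arrays lay below all 3 control arrays, and the means were 3.31 ± 0.05 and 2.65 ± 0.30 (SD, n = 3). The change was -0.66 ± 0.15 (SE, limma adjusted p = 0.0357), a signal 1.58-fold lower. Fitted with slide as a block it was -0.71 with an adjusted p of 0.386, and 0 of 42 members passed, against 0.975% of all features. Leaving out each array in turn gave -0.77 to -0.49, with an adjusted p under 0.05 in 3 of 12 cases and 0.113 at the highest. The call held without control siRNA array 3, control siRNA with LPS array 2 or lincRNA siRNA array 1, and was lost without any 1 of the other arrays. Leaving out control siRNA array 3 sets controls on slide 1 against LPS arrays on slide 2, so LPS and slide cannot be told apart there. The probe lies on mm9 chr4:135750562-135750621.

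**Figure D1:**
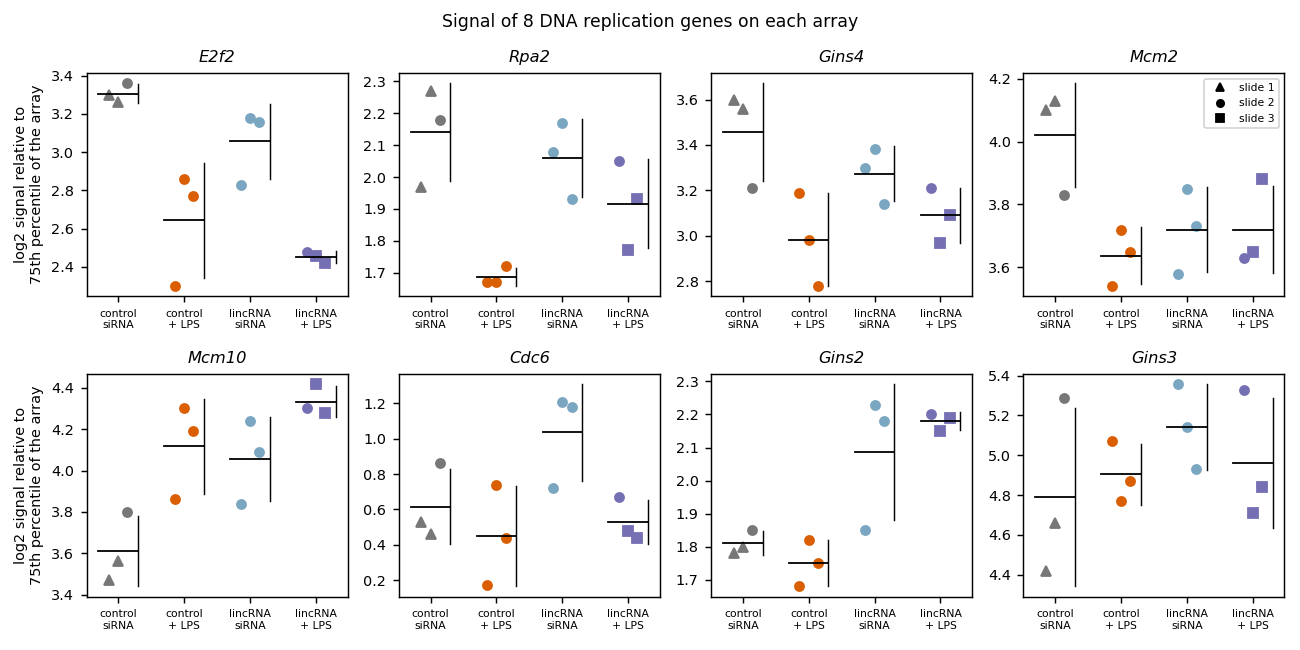
Log2 signal relative to the array's 75th percentile for 8 genes of the set, 1 point per array; the horizontal bar is the group mean of 3 arrays, the vertical bar its SD, and the marker shape gives the slide. E2f2 sits at 3.26 to 3.36 without LPS and 2.30 to 2.86 with LPS in control siRNA cells, while for Gins3 the slide 1 arrays lie at 4.42 and 4.66 and the slide 2 control array at 5.29.

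As a set, the genes lay slightly below their control level. The median LPS change of the 42 genes was -0.16, against 0.06 over all features, and 31 of 42 were below 0, against 44.1% of all features. For 19 of 42 genes all LPS arrays lay below all control arrays, against 15.3% of all features, and for 1 (Mcm10) above, against 14.8%. The median was -0.19 with slide as a block, against -0.05 over all features, and 37 of 42 were below 0, against 56.8%. These blocked values rest on the only control siRNA array on slide 2. With each gene centred on its mean over all arrays, its set median was 0.08, against 0.01 and 0.01 on slide 1. The changes were small: the 95% CI lay within 2-fold in either direction for 42 of 42 genes, against 63.1% of all features. The median SE was 0.13 for the set and 0.19 over all features, so its intervals were also narrower. Neither this share nor the overlap counts were matched for that spread. An unadjusted p under 0.05 was found for 11 genes, against 24.2% of all features. In bulk RNA such as this, fewer cells in S phase and less of these RNAs per cell cannot be told apart.

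The helicase core, Mcm2 to Mcm7, had 6 of 6 genes below 0, against 44.1% of all features, with a median of -0.18. For 5 of 6 the LPS arrays lay below the controls, against 15.3% of all features. The median SE of this role was 0.09, against 0.19 over all features, and these counts were not matched for that spread. Mcm2 read 4.10, 4.13 and 3.83 without LPS and 3.54, 3.72 and 3.65 with it. Its change was -0.39 ± 0.12 (SE, limma adjusted p = 0.109), but -0.19 with slide as a block, since the slide 2 control array was the lowest of the 3. Mcm7 moved less and was steadier between slides, at 5.74, 5.76 and 5.82 against 5.49, 5.56 and 5.50. Mcm6 had a change of -0.04 and its groups overlapped.

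The origin genes Orc1, Orc6, Cdc6 and Cdt1 were all below 0, against 44.1% of all features, with a median of -0.28. Changes ran from -0.34 for Orc1 to -0.17 for Cdc6, which were -0.11 and -0.41 with slide as a block. Helicase activation was the most divided role, from -0.47 for Gins4 to 0.51 for Mcm10. Gins4, a GINS subunit, read 3.60, 3.56 and 3.21 without LPS and 3.19, 2.98 and 2.78 with it. Those groups did not overlap, yet the closest arrays were 3.21 and 3.19; the change was -0.47 ± 0.15 (SE, limma adjusted p = 0.0992) and -0.22 with slide as a block. Mcm10, which helps start the loaded helicase, went the other way, at 3.47, 3.56 and 3.80 without LPS and 3.86, 4.30 and 4.19 with it. Its change of 0.51 ± 0.15 (SE, limma adjusted p = 0.0876) became 0.32 with slide as a block.

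Gins3, Prim2 and Rpa1 had changes whose sign depended on the slide. Gins3, another GINS subunit, read 4.42 and 4.66 on the slide 1 control arrays and 5.29 on the slide 2 control array, with LPS arrays at 5.07, 4.77 and 4.87. The LPS arrays lay between those of the 2 control slides, so the change was 0.11 over all slides and -0.39 with slide as a block. Prim2, the large primase subunit, read -1.34, -1.31 and -0.67 against -1.21, -0.70 and -0.67, and its change was 0.25 over all slides and -0.19 with the block. For Rpa1, the large RPA subunit, the brighter probe read 5.49, 5.59 and 6.11 without LPS and 5.70, 5.76 and 6.0 with it. That gave 0.09 over all slides and -0.29 with the block. A second Rpa1 probe differed from the first, at 4.39, 4.31 and 4.41 without LPS and 4.05, 3.85 and 3.58 with it, a change of -0.54 ± 0.15 (SE). On that probe the slide 1 and slide 2 control arrays were alike and all LPS arrays were lower.

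Among the other synthesis genes, Rpa2, a further RPA subunit, came closest to the threshold after E2f2. It read 1.97, 2.27 and 2.18 without LPS and 1.67, 1.67 and 1.72 with it, so the LPS arrays were tightly grouped and all lower. The change was -0.45 ± 0.12 (SE, limma adjusted p = 0.0548), and -0.50 with slide as a block (adjusted p = 0.372). Rpa3 was at -0.23. The clamp gene Pcna was at -0.18 and its loader genes Rfc1 to Rfc5 ran from -0.37 (Rfc1) to 0.01 (Rfc4). Under the slide block Rfc1 and Rfc4 were both at -0.19, and Pcna was at -0.14. The polymerase and primase genes Pola1, Pola2, Pold1, Pole, Prim1 and Prim2 had a median of 0.01, with overlapping groups for each. Of these, 3 of 6 were below 0, against 44.1% of all features. Under the slide block the median was -0.16 with 5 of 6 below 0, against 56.8%. The flap nuclease gene Fen1 was at -0.31 and the ligase gene Lig1 at 0.05, or -0.08 with slide as a block. Of the nucleotide-supply genes, Tk1 (thymidine kinase) was at -0.29, Rrm2 at -0.10, Tyms at -0.08 and Rrm1 at 0.08, the last at -0.03 with slide as a block. Uhrf1, needed to copy DNA methylation, was at -0.19 and the uracil glycosylase gene Ung at -0.22, or -0.10 with slide as a block.

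E2F factors and cyclin E were the role with the lowest median, -0.31. LPS arrays lay below controls for 3 of 3, against 15.3% of all features. E2f1, a second activating E2F, read 2.80, 2.71 and 2.89 without LPS and 2.42, 2.59 and 2.66 with it, a change of -0.25 ± 0.10 (SE, limma adjusted p = 0.173). Ccne1, the cyclin that activates CDK2 at S phase entry, was at -0.31 on its brighter probe. Its dimmer probe gave -0.64 ± 0.15 (SE), close to the -0.66 of E2f2.

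Sums over markers of other cell types also differed between these groups. The summed signal of 4 T cell markers, as a multiple of the array's 75th percentile, was 2.83 to 4.40 without LPS and 5.16 to 7.14 with it, and that of 5 fibroblast markers 0.44 to 0.616 and 0.757 to 2.17. The 4 endothelial markers gave 8.68 to 10.3 and 11 to 14.6, the 4 B cell markers 0.137 to 0.202 and 0.23 to 0.285, and the 10 macrophage markers 357 to 442 and 446 to 509. Sums of the 4 epithelial and 3 erythroid markers overlapped between these groups. The sums add unlogged signal, so they mostly follow their brightest genes, and a separated sum can come from few genes. Over the 12 arrays these were Kdr for endothelial (log2 3.06 to 3.88) and Dcn for fibroblast markers (-2.08 to 0.87). For macrophages they were Csf1r (7.74 to 8.19) and Cd14 (6.33 to 7.97), and for T cells Cd3e (0.22 to 2.13) and Lck (0.71 to 1.77). Of the T cell genes, Cd3e and Lck were well above background on all 12 arrays, Cd3g on 0 and Cd3d on 2. Markers well above background on all 12 arrays were 1 of 5 for fibroblasts (Dcn), 0 of 4 for epithelial, 2 of 4 for endothelial (Pecam1 and Kdr), 1 of 4 for B (Cd79a) and 1 of 3 for erythroid cells, while Col1a2 and Cdh5 were so on 11. Pdgfra, Epcam, Cdh1, Tek, Ms4a1 and Hbb-b1 of the same lists were so on 0 arrays. Their part in the LPS differences was not tested.

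The second comparison was the same LPS step in lincRNA siRNA cells, which shares no array with the first. No member passed the threshold in limma, where 1.85% of all features did, and 3 of 42 had an unadjusted p under 0.05, against 10.2%. E2f2 was again the lowest of the set on the brightest probe of each gene. It read 2.83, 3.18 and 3.16 without LPS and 2.48, 2.46 and 2.42 with it, with all LPS arrays below the others. The change was -0.60 ± 0.15 (SE, 95% CI -0.94 to -0.26, limma adjusted p = 0.105), and -0.57 with slide as a block. Averaged over both siRNAs, E2f2 fell by 0.63 ± 0.11 on the log2 scale (limma adjusted p = 0.00584) and was the only member to pass, where 8.22% of all features did; with slide as a block that adjusted p was 0.128.

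Cdc6, which helps load the helicase, was the next lowest gene. It read 0.72, 1.21 and 1.18 without LPS and 0.67, 0.48 and 0.44 with it, a change of -0.50 ± 0.19 (SE, limma adjusted p = 0.352). The groups did not overlap, although 0.72 and 0.67 were close. A second, dimmer Cdc6 probe read -1.63, -1.36 and -1.26 without LPS and -2.09, -2.00 and -2.15 with it. Its change of -0.66 ± 0.19 (SE) was lower than that of E2f2. Rfc1, the large clamp-loader subunit, read 4.23, 4.28 and 4.09 against 4.05, 3.76 and 3.89, and Tk1 had a change of -0.23 with overlapping groups. The highest changes were 0.36 for Tyms, 0.28 for Mcm10, 0.20 for Pola2 and 0.14 for Cdc45, and the last was -0.07 with slide as a block. Tyms, thymidylate synthase, was the most variable of these, at -1.81, -1.98 and -1.95 without LPS and -1.45, -1.11 and -2.09 with it.

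The median over the set was -0.09, against -0.01 over all features, and 30 of 42 were below 0, against 51.7%. With slide as a block these became 0.02 and 19 of 42, against 0.00 and 49.9%. The block leaves 1 lincRNA siRNA with LPS array on slide 2, the one with the highest set median of its group. LPS arrays lay below the others for 5 of 42 genes, against 7.52% of all features, and above for 1 (Mcm10), against 8%. Summed markers separated here too for T cells (4.95 to 5.88 without LPS and 6.64 to 7.73 with it) and macrophages (472 to 537 and 541 to 611), and their part was not tested. The helicase core had a median of -0.08, or 0.01 with slide as a block. The LPS arrays lay below the unstimulated arrays under both siRNAs for 3 of 42 genes (E2f1, E2f2 and Rfc1), against 4.52% of all features. A change below 0 under both was found for 24 of 42, against 31.9%, and for 18 of 42 with slide as a block, against 33.6%. For 1 of 42, Mcm10, the LPS arrays lay above under both, against 4.54%, at 3.84, 4.24 and 4.09 without LPS and 4.30, 4.42 and 4.28 with it here.

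**Figure D2:**
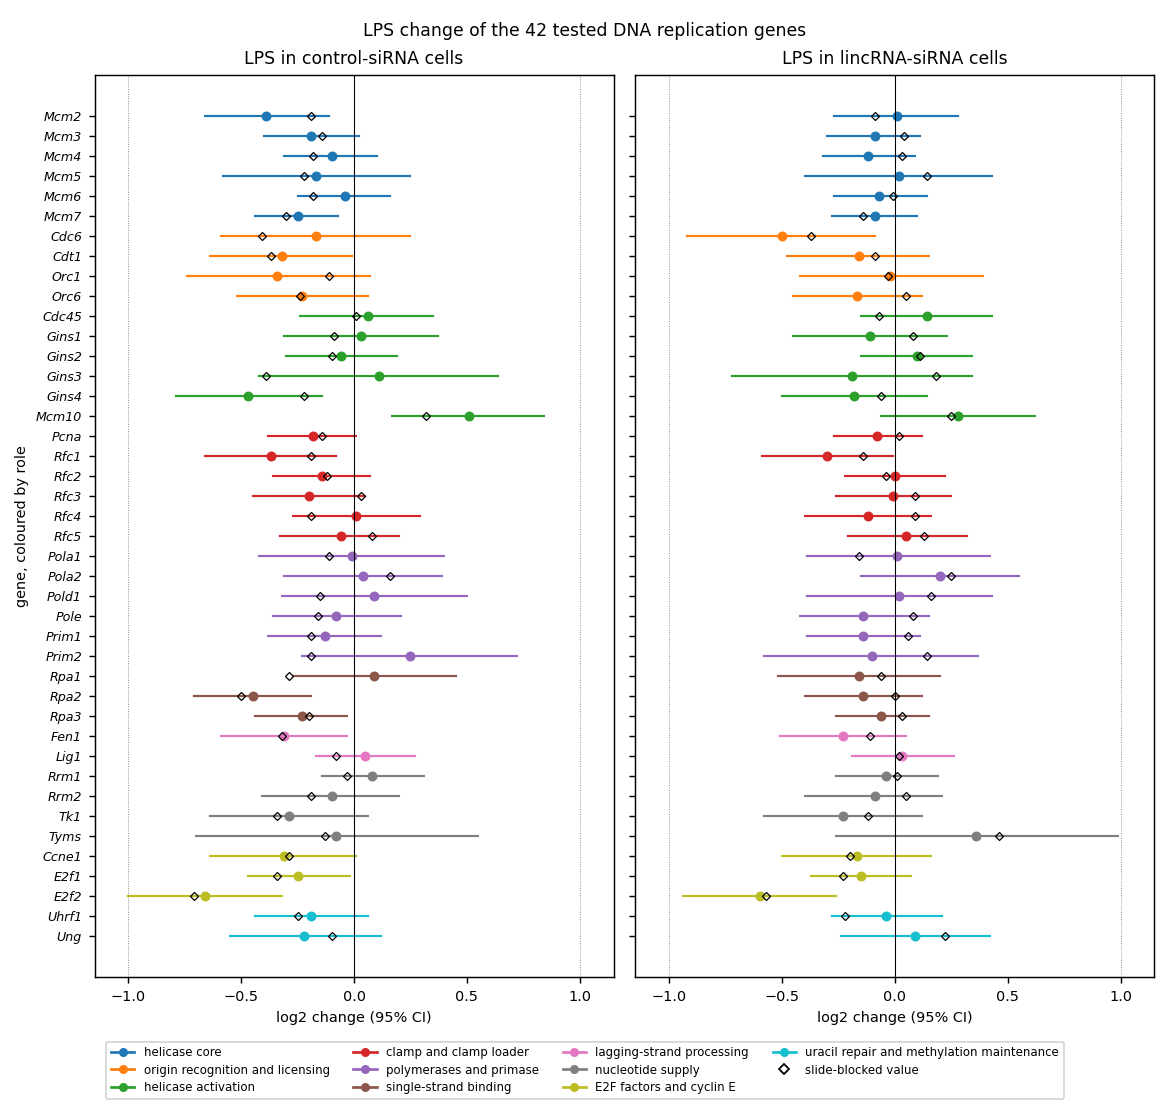
Log2 change with LPS for the 42 tested genes, grouped by role, in control siRNA cells on the left and lincRNA siRNA cells on the right; points are limma estimates, bars 95% CIs, and open diamonds the value with slide as a block. E2f2 is lowest on both sides, at -0.66 and -0.60, and in control siRNA cells the diamond for Gins3 lies at -0.39 against a point at 0.11.

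Whether LPS acted differently under the 2 siRNAs was tested by the interaction term. No member passed (limma), 0 of 42 had an unadjusted p under 0.05, against 3.75% of all features, and no feature of the array passed either. The E2f2 interaction was 0.06 (95% CI -0.42 to 0.54), an interval that holds differences of up to 0.54. The median over the set was 0.08 with 28 of 42 above 0, against -0.04 and 44.6% over all features. Blocked by slide it was 0.17 with 39 of 42 above 0, against 0.06 and 59.2%. That fit rests on 1 control siRNA array and 1 lincRNA siRNA with LPS array on slide 2, each with the highest set median of its group. The genes were read on the same arrays, so these counts are not 42 separate tests. Mcm2 had the interval closest to leaving 0 (0.39, 95% CI 0.00 to 0.78), and it was 0.10 with the block.

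Other gene lists give the setting of these values. With LPS in control siRNA cells, 45 other replication genes had a median of -0.22, against 0.06 over all features. Of these 45, 0 rose and 4 fell, against 3.26% and 1.89% of all features. They were Orc5, an origin recognition subunit, at -0.79, Wdhd1, a factor that ties polymerase to the helicase, at -0.63, Dbf4, the activator of the CDC7 kinase, at -0.57, and Gmnn, the inhibitor of CDT1, at -0.57 (limma adjusted p = 0.0229, 0.0405, 0.0437 and 0.0472). Orc5 read 1.44, 1.27 and 1.13 without LPS and 0.72, 0.37 and 0.37 with it, with no overlap. Under the slide block 0 of these 45 passed, and Dbf4 was at -0.30. In lincRNA siRNA cells 0 of 45 passed, against 1.85% of all features, and the median was -0.10, against -0.01.

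Of 26 genes of G1/S control, LPS raised 1 and lowered 4 under the control siRNA, against 3.26% and 1.89% of all features. The median was -0.29, against 0.06. Ccnd2, cyclin D2, rose by 1.32 ± 0.19 (SE, limma adjusted p = 0.00312), from -1.30, -1.14 and -0.94 to 0.07, 0.29 and 0.22. Cdkn1b, the CDK inhibitor p27, fell from 2.43, 2.45 and 2.49 to 1.84, 1.82 and 1.75, a change of -0.66 ± 0.08 (limma adjusted p = 0.00146). E2f8, a repressing E2F, was at -0.53, the kinase gene Cdk2 at -0.52 and the inhibitor gene Cdkn2c at -0.44 (limma adjusted p = 0.0146, 0.0271 and 0.0368). In the slide-blocked fit Cdkn1b (-0.69, adjusted p = 0.0478) and E2f8 (-0.69, adjusted p = 0.0481) were the 2 of the list that passed. The list thus holds both a cyclin that rose and an inhibitor that fell. Cdkn1a, the CDK inhibitor p21, read 4.98, 4.83 and 4.85 without LPS and 5.16, 5.30 and 5.37 with it in control siRNA cells. Its groups did not overlap there, but it did not pass. In lincRNA siRNA cells, where 1.85% of all features passed, Cdkn1a passed and rose by 0.56. E2f8 (-0.55) and Cdkn1b (-0.44) fell there (limma adjusted p = 0.0288 for Cdkn1a, 0.0215 and 0.0253). None of these 3 passed under the slide block (adjusted p = 0.529, 0.205 and 0.316), nor did any other gene of the list.

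Among 29 mitosis genes 3 fell in control siRNA cells and 0 rose, against 1.89% and 3.26% of all features. The median was -0.28, against 0.06, and 28 of 29 were below 0, against 44.1%. Aurkb, the Aurora B kinase, was at -1.22 over all slides and -0.60 with slide as a block; Ccnb2, cyclin B2, was at -0.43 and Aurka, the Aurora A kinase, at -0.39 (limma adjusted p = 0.0394, 0.0412 and 0.0495). With the block 0 of 29 passed. In lincRNA siRNA cells 0 of 29 passed, against 1.85% of all features, and the median was -0.13, against -0.01.

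**Figure D3:**
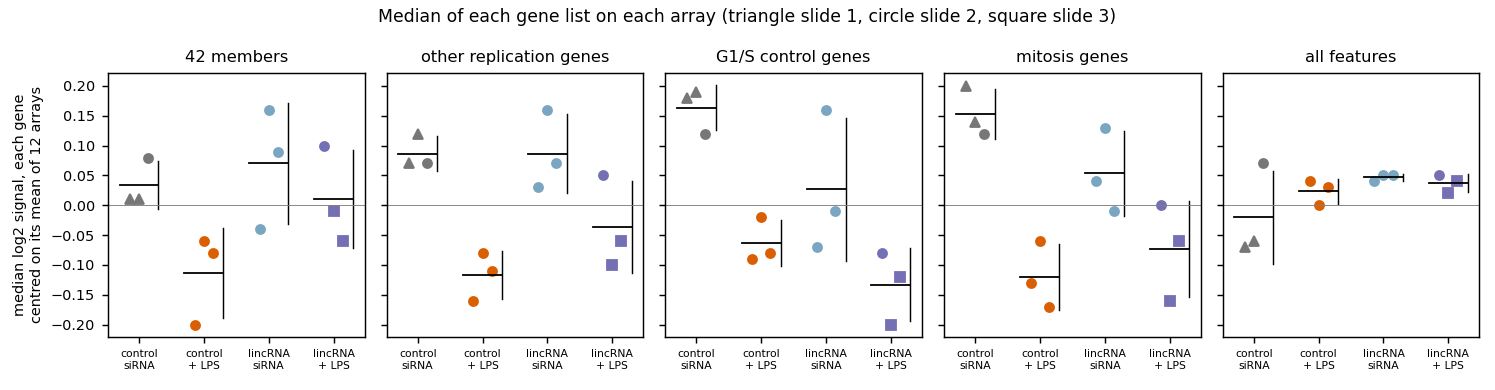
Median over each gene list on each array after each gene was centred on its mean of 12 arrays, in log2 units; bars are group means and SDs of 3 arrays, and marker shape gives the slide. The 42 members lie at 0.01 to 0.08 in control siRNA cells and at -0.20 to -0.06 with LPS, while the median of all features lies at -0.07 and -0.06 on the slide 1 arrays and 0.07 on the slide 2 control array.

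The siRNA comparisons ask what the lincRNA-Tnfaip3 siRNA changed. Under LPS, 0 of 42 genes passed (limma), as did 0% of all features, and 3 of 42 had an unadjusted p under 0.05, against 4.64%. Of 42 genes, 38 were above 0, against 53.7% of all features, and the median was 0.09, against 0.02. These genes were read on the same arrays, so that count is not 42 separate tests. After each gene was centred on its mean over all arrays, the set's median was compared array by array. It was -0.20, -0.06 and -0.08 with control siRNA and 0.10, -0.01 and -0.06 with the lincRNA siRNA. The groups thus met at -0.06, and leaving out each array in turn gave a median change of 0.05 to 0.13. With slide as a block the median was 0.20, against 0.04, and 35 of 42 were above 0, against 56.6%. Those blocked values rest on the only lincRNA siRNA with LPS array on slide 2, which had the highest set median of its group. The lincRNA siRNA arrays lay above the control siRNA arrays for 6 of 42 genes, against 7.15% of all features, and below for 0, against 4.29%. The summed macrophage markers also separated between the siRNAs, at 446 to 509 against 541 to 611 with LPS and 357 to 442 against 472 to 537 without. The T cell sum did so without LPS, at 2.83 to 4.40 against 4.95 to 5.88. Their part in the siRNA differences was not tested.

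Gins2, a GINS subunit, had the highest value of that comparison. Under LPS it read 1.68, 1.82 and 1.75 with control siRNA and 2.20, 2.15 and 2.19 with the lincRNA siRNA, both tight and with no overlap. The difference was 0.43 ± 0.11 (SE, 95% CI 0.18 to 0.67, limma adjusted p = 0.905) and 0.45 with slide as a block. Without LPS its difference was 0.28, with arrays at 1.78, 1.80 and 1.85 against 1.85, 2.23 and 2.18. Mcm3, a helicase subunit, read 5.74, 5.88 and 5.87 against 6.27, 6.06 and 6.09 under LPS. Its difference was 0.31 ± 0.09 (SE, limma adjusted p = 0.974), and a second Mcm3 probe, which overlaps the first on the genome, gave 0.29. The lowest values were -0.19 for E2f2 and -0.05 for Pola1, the catalytic subunit of the priming polymerase, both with overlapping groups.

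Without LPS, 0 of 42 genes passed (limma), as did 0% of all features, and 4 of 42 had an unadjusted p under 0.05, against 18.5%. The median was 0.05, against 0.07 over all features, and 0.00, against -0.02, with slide as a block. Arrays of the lincRNA siRNA lay above the controls for 3 of 42 genes, against 12.2% of all features, and below for 4, against 9.22%. Mcm10 was highest at 0.45 ± 0.15 (SE, limma adjusted p = 0.221), or 0.25 with the block, and Cdc6 next at 0.42, or 0.17 with the block. The second, dimmer Cdc6 probe did not share that difference and gave 0.00 without LPS. Under LPS it gave -0.35, where the brighter probe gave 0.08. Mcm2 was lowest at -0.31, or -0.11 with the block, and E2f2 was at -0.25, its arrays all below the controls. Prim2, Gins3 and Rpa1 were at 0.41, 0.35 and 0.35 over all slides and at -0.03, -0.15 and -0.03 with slide as a block. In all 3, as in Mcm10 and Cdc6, both slide 1 control arrays read lower than the slide 2 control array. The second Rpa1 probe gave -0.41.

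**Figure D4:**
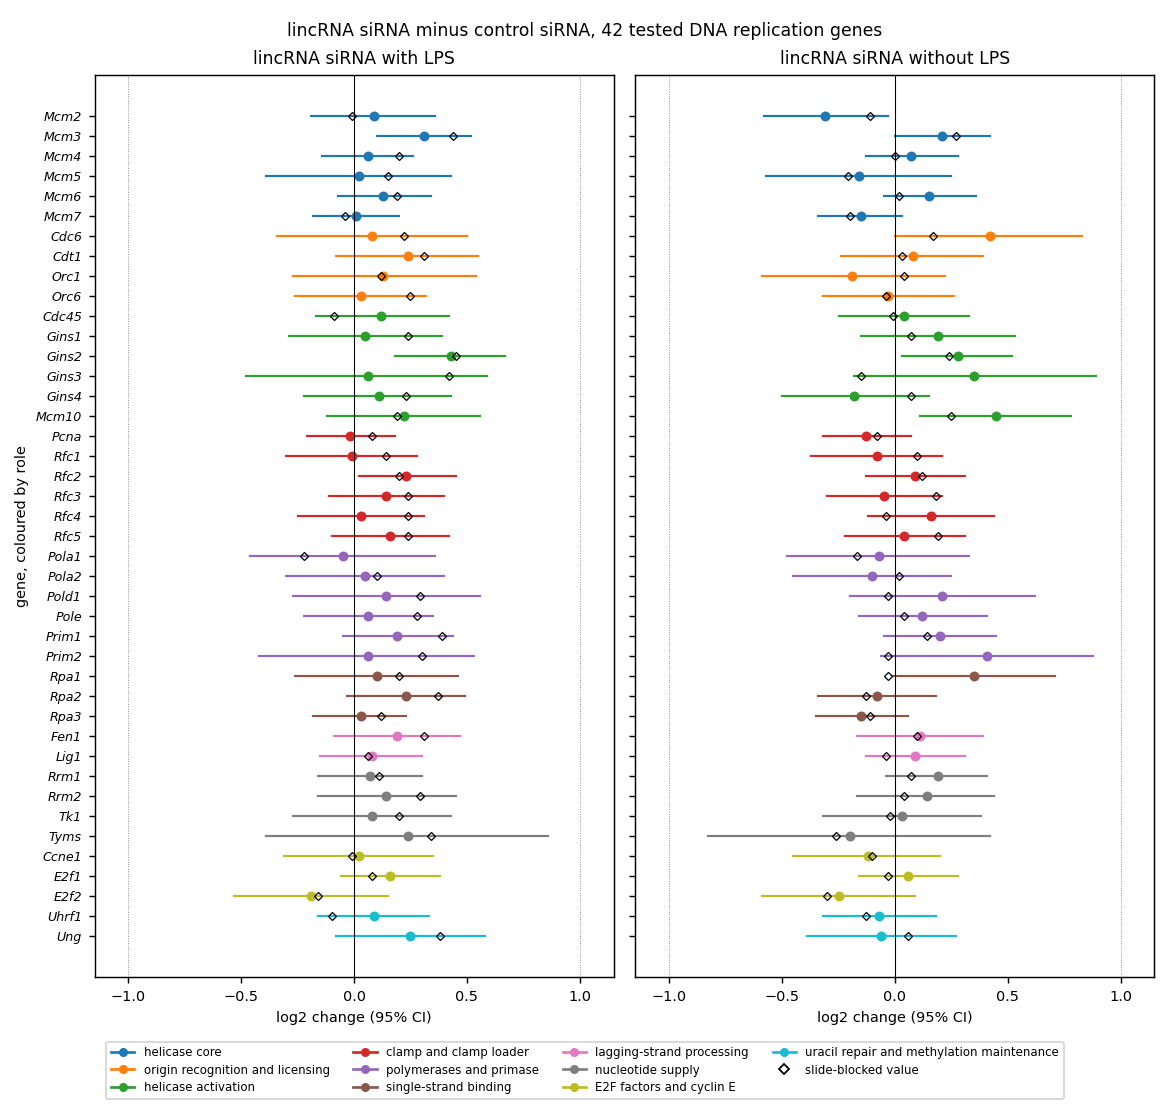
Difference between lincRNA siRNA and control siRNA cells in log2 units for the 42 tested genes, with LPS on the left and without on the right; points are limma estimates, bars 95% CIs, and open diamonds the value with slide as a block. With LPS 38 of 42 points lie above 0 and Gins2 is highest at 0.43, and without LPS the points for Prim2, Gins3 and Rpa1 lie at 0.35 to 0.41 while their diamonds lie at -0.15 to -0.03.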

How the data were processed

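Total RNA of 12 samples was hybridised to single-colour Agilent arrays. Deposited spot intensity values were made by the authors with Agilent Feature Extraction 10.7.1.1, per the file headers, which give probe positions on mm9. The authors' value table, whose log2 scale was read from its match to each array, served as an alternative; how it was normalized is not stated in the labels or headers. Processed intensities were divided by the 75th percentile of their array and put on a log2 scale, with outlier spots left out and spots of 1 probe averaged. A probe was kept if well above background on all 3 arrays of a group (33132 of 55681), and the brightest probe stood for a gene. One mean per group was fitted to 12 arrays with limma 3.58.1 in R 4.3.3, with Benjamini-Hochberg adjustment over 23890 features and a threshold of 0.05. The fit was tested on simulated data without slide differences, which cannot show how the slides affect the calls. The number of arrays limits the precision.

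The set and the other lists were chosen with earlier results of these data known. Genes named with values were those that passed, the 4 highest and 4 lowest of each LPS comparison, the 2 of each siRNA comparison, and those whose sign changed with slide and with a value over 0.3; of other lists, up to 6 that passed. Mcm7, Mcm6, E2f1, the role examples and second probes were added after their values were seen. Alternatives were quantile normalization, normexp with an offset of 50, other filters, the mean of all probes, the authors' table, slide and replicate blocks, and leaving out each array. Replicate numbers are shared between groups and were not used as pairs in the main fit.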

Additional observations from a re-analysis of the deposited data

How the results depend on the processing

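E2f2 kept its direction in all 22 alternatives of the LPS comparison in control siRNA cells. The number of genes of the set that passed there was 1; it was 0 with quantile normalization, no filter on dim probes, the authors' table, slide as a fixed or random block or slide 2 alone, and 2 with probes above background on all 12 arrays. Leaving out each array gave 0 to 4, the 4 without control siRNA array 3 (over all features 1231 became 537 to 3975, and 233 with the slide block or 42 on slide 2 alone). In lincRNA siRNA cells the count of 0 became 1 with normexp and 0 to 1 with an array left out. Without LPS the siRNA count of 0 was 0 to 1 (Rpa1, without control siRNA array 3, where all features gave 2608). Leaving out that array leaves control siRNA arrays on slide 1 only. For LPS averaged over both siRNAs the count of 1 was 2 with quantile normalization, normexp or the mean of probes, 4 with the filter on all 12 arrays, 0 with the slide block or slide 2 alone, and 1 to 4 with an array left out. With slide as a fixed block, and on slide 2 alone, the medians of LPS in lincRNA siRNA cells, of the siRNA under LPS and of the interaction moved from -0.09, 0.09 and 0.08 to 0.02, 0.20 and 0.17. The same settings reversed Rpa1 (-0.29), Gins3 (-0.39) and Prim2 (-0.19) for LPS in control siRNA cells, Cdc45 (-0.07) for LPS in lincRNA siRNA cells, and Rpa1 (-0.03), Gins3 (-0.15) and Prim2 (-0.03) for the siRNA without LPS. They also reversed the interactions of Prim2 (0.33), Cdc6 (0.04), Gins3 (0.57) and Pold1 (0.31). The mean of probes reversed Rpa1 (-0.23 for LPS, -0.03 for the siRNA), and the random block Gins3 (-0.01) and the Pold1 interaction (0.03). The cause of these changes was not tested. With the replicate number as a block, 2 genes (E2f2, Mcm10) passed for LPS in control siRNA cells and 4 for the average. Same-numbered arrays correlated at -0.30 to 0.47, with 8 of 18 pairs over 0.1. Of the 12 arrays, 5 correlated best with their own number. With groups of 3 arrays spread over slides, these correlations cannot settle whether the numbers pair the samples.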
